A study of Mus musculus with 9 samples.

Results

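A set of 10 genes of the endoplasmic reticulum (ER) stress response were followed in kidneys of wild-type and Trex1-/- mice, the latter given the STING antagonist SN-011 or its vehicle, which the labels call PBS and the methods describe as PBS with the detergent Tween. They are Herpud1, Xbp1, Atf4, Atf3, Ddit3, Hspa5, Calr, Dnajb9, Sdf2l1 and Creld2, 10 of 54532 gene identifiers in the count files, and all 10 passed the filter on low counts. They were chosen by the counts themselves, because Herpud1 and Xbp1 were higher with SN-011 than with PBS in these libraries. The comparison of SN-011 with PBS therefore stands here as a description without a test. PolyA-selected RNA was sequenced in 9 libraries, 3 in each of 3 groups, which are the wild type (WT), Trex1-/- with PBS, and Trex1-/- under SN-011. All animals were on the C57BL/6J background, and none carried a transgene that the sources name. Trex1-/- mice came from matings of Trex1+/- mice, were 1 month old, and received SN-011 at 10 mg/kg or vehicle intraperitoneally every day for 2 weeks. Wild-type mice were purchased at 4 to 8 weeks of age and are not described as injected, so the genotype, the source and the injection cannot be told apart in a comparison with the wild type. TREX1 is an exonuclease that removes cytosolic DNA, and STING relays the signal of cGAS, a sensor of such DNA, towards interferon.

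The ER folds secreted and membrane proteins, and an excess of unfolded clients sets off the unfolded protein response through 3 sensors in its membrane. IRE1, encoded by Ern1, splices the mRNA of the transcription factor XBP1. PERK, encoded by Eif2ak3, slows translation and favours ATF4, which induces ATF3 and CHOP, the product of Ddit3, and ATF6 is cut in the Golgi to release a factor that induces chaperones such as BiP, the product of Hspa5. Kidney tubules carry a heavy load of membrane transporters and their ER stress response is well known from injury. A count per gene does not separate spliced from unspliced Xbp1 mRNA, nor does it measure translation or cleavage of a sensor.

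These sensors act on their target genes through short promoter elements. The ER stress response element is bound by ATF6 with the factor NF-Y, and a related form, ERSE-II, has been described in the promoter of Herpud1. ATF4 binds, with a partner, the C/EBP-ATF response element of amino acid and stress genes. All 10 genes had a RefSeq promoter window on GRCm38.p6. The 100 bases just before the RefSeq start are shown for Herpud1 and Creld2, the member called with SN-011 and a member of the chaperone set whose levels varied together, as given with the correlations. Neither stretch lies in an annotated exon, and the RefSeq start of Herpud1 is not the GENCODE start given with its values. Of its bases 67.0% are G or C in Herpud1 and 72.0% in Creld2, beside a median of 55.0% over 32851 windows. No motif search is reported for them, and they are written 5′ to 3′ along the gene's strand.
Herpud1, chr8:94386329-94386428, + strand: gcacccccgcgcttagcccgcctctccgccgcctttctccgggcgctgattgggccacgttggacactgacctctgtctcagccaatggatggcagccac
Creld2, chr15:88819546-88819645, + strand: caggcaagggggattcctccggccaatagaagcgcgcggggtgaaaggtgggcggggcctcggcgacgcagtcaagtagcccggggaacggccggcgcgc

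The libraries held 16118813 to 21928965 counts each. Trex1 had 0 counts in all 9 libraries, wild type included, so it does not check the labels, and 3 counts would be 0.137 to 0.186 CPM by library (CPM is the count scaled to a common library size). Summed CPM of 8 kidney segment markers was 17385 to 19113 in the wild type, 15791 to 16694 in the PBS group and 16566 to 16929 in the SN-011 group. All wild-type libraries lay above all Trex1-/- libraries, 6 of the 8 markers were below 0 for PBS minus wild type, and the part of this in the lower values of Xbp1, Hspa5 and Txndc5 with PBS was not tested. The labels give no sex, and reads of Y-linked genes were present in wild-type replicate 3, in all 3 PBS replicates and in SN-011 replicate 2 only. SN-011 replicate 2 also had the lowest scaling factor of the trimmed mean of M-values (TMM), 0.926, against 0.979 to 1.06 in the others. Values below are CPM with TMM scaling, group means are given with SD and n = 3, and log2 differences are edgeR's, with SE. The labels do not name the animal behind each library, and p-values measure the spread between these libraries, part of which may be technical. A gene was called at a Benjamini-Hochberg adjusted p under 0.05 over the 16646 genes tested.

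Herpud1 encodes an ER membrane protein of the complex that sends misfolded proteins out for degradation, and it stood out with SN-011. Its gene lies at chr8:94386438-94395377 on GRCm38, and its level was 377, 347 and 356 CPM in wild-type replicates 1 to 3, 351, 331 and 327 CPM with PBS, and 528, 636 and 483 CPM with SN-011. The 3 SN-011 libraries lay above all others, and the wild-type and PBS ranges overlapped. Against PBS, Herpud1 was 1.63 times as high with SN-011 (log2 difference 0.71, SE 0.113). With SN-011 it rose against the wild type, from 359.8 ± 15.1 to 549 ± 78.6 CPM (log2 difference 0.61, SE 0.112, adjusted p = 0.0323 by edgeR's quasi-likelihood test). Among all genes tested, 1.28% were called in that comparison, 0.823% as higher, and Herpud1 was the 1 call among these 10 genes. The comparison shares its SN-011 libraries with the one by which Herpud1 was chosen, so it is not independent of that choice. PBS against wild type gave a log2 difference of -0.10 (SE 0.112, adjusted p = 0.73 by edgeR).

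The call for Herpud1 was lost in 7 of 19 alternative settings. The adjusted p by edgeR was 0.109, 0.144 and 0.0727 without wild-type replicate 1, 2 or 3, and 0.0669, 0.0664 and 0.0576 without PBS replicate 1, 2 or 3. With only the 6 libraries compared it was 0.121, and with a term for Y-linked reads it was 0.0104. Without SN-011 replicate 2, the highest of its group, the log2 difference was 0.49 and the adjusted p 0.0252.

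Xbp1, at chr11:5520659-5525893, encodes the transcription factor that IRE1 activates, and it had its lowest level in the PBS group. Wild-type replicates 1 to 3 held 153, 178 and 149 CPM, PBS replicates 121, 109 and 112 CPM, and SN-011 replicates 193, 203 and 149 CPM. Every PBS library lay below every library of the other groups, while the wild-type and SN-011 ranges overlapped. PBS was at 0.712 times the wild type (log2 difference -0.49, SE 0.126), which was not called at an adjusted p of 0.0923 by edgeR. It passed the threshold in 5 of 19 alternative settings, with adjusted p from 0.0131 to 0.345 over all 19. Among those 5, leaving out SN-011 replicate 2 gave 0.0404 and leaving out SN-011 replicate 3 gave 0.0382. SN-011 was 1.59 times PBS (log2 difference 0.67, SE 0.127) and differed from the wild type by 0.18 (SE 0.126, adjusted p = 0.488 by edgeR). The PBS libraries also entered the choice of Xbp1, so its low level there is not independent of it.

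The remaining transcription factors belong to the PERK arm. Atf4, at chr15:80255184-80257541, encodes the factor at its centre, and had 139, 127 and 111 CPM in the wild type, 111, 109 and 112 CPM with PBS, and 151, 138 and 109 CPM with SN-011. The 3 ranges overlapped, and SN-011 exceeded PBS by a log2 difference of 0.26 (SE 0.125), which ran from 0.16 to 0.39 when a library was left out. ATF4 is regulated largely at translation, which these counts do not show.

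Ddit3 encodes CHOP, a factor linked to cell death under prolonged ER stress, and lies at chr10:127290774-127296288. It had 13.2, 12.5 and 13.3 CPM in the wild type, 11.7, 12.8 and 13.5 CPM with PBS, and 17.4, 18.5 and 14.4 CPM with SN-011. All SN-011 libraries lay above the others, by a log2 difference of 0.37 from the wild type (SE 0.12, adjusted p = 0.153 by edgeR) and of 0.41 from PBS (SE 0.121). The annotation holds 2 records named Ddit3, and the values are those of the longer one. Of its exon bases, 10.9% overlap other annotated genes, Mars and the other Ddit3 record among them, and a read pair there may not be counted.

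Atf3 encodes a stress-induced repressor and lies at chr1:191170296-191218039. It was the least expressed of the 10, at 3.77, 2.12 and 1.85 CPM in the wild type, 4.99, 5.9 and 2.55 CPM with PBS, and 7.14, 10.1 and 2.31 CPM with SN-011. Replicate 3 was the lowest library of each group, and the groups overlapped. The log2 difference from the wild type was 1.33 with SN-011 (SE 0.5, adjusted p = 0.204 by edgeR) and 0.79 with PBS (SE 0.506, adjusted p = 0.502 by edgeR). When a library was left out, these ran from 0.86 to 1.73 with SN-011 and from 0.53 to 1.16 with PBS. SN-011 minus PBS was 0.54 (SE 0.487), and 0.07 without SN-011 replicate 2.

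**Figure D1:**
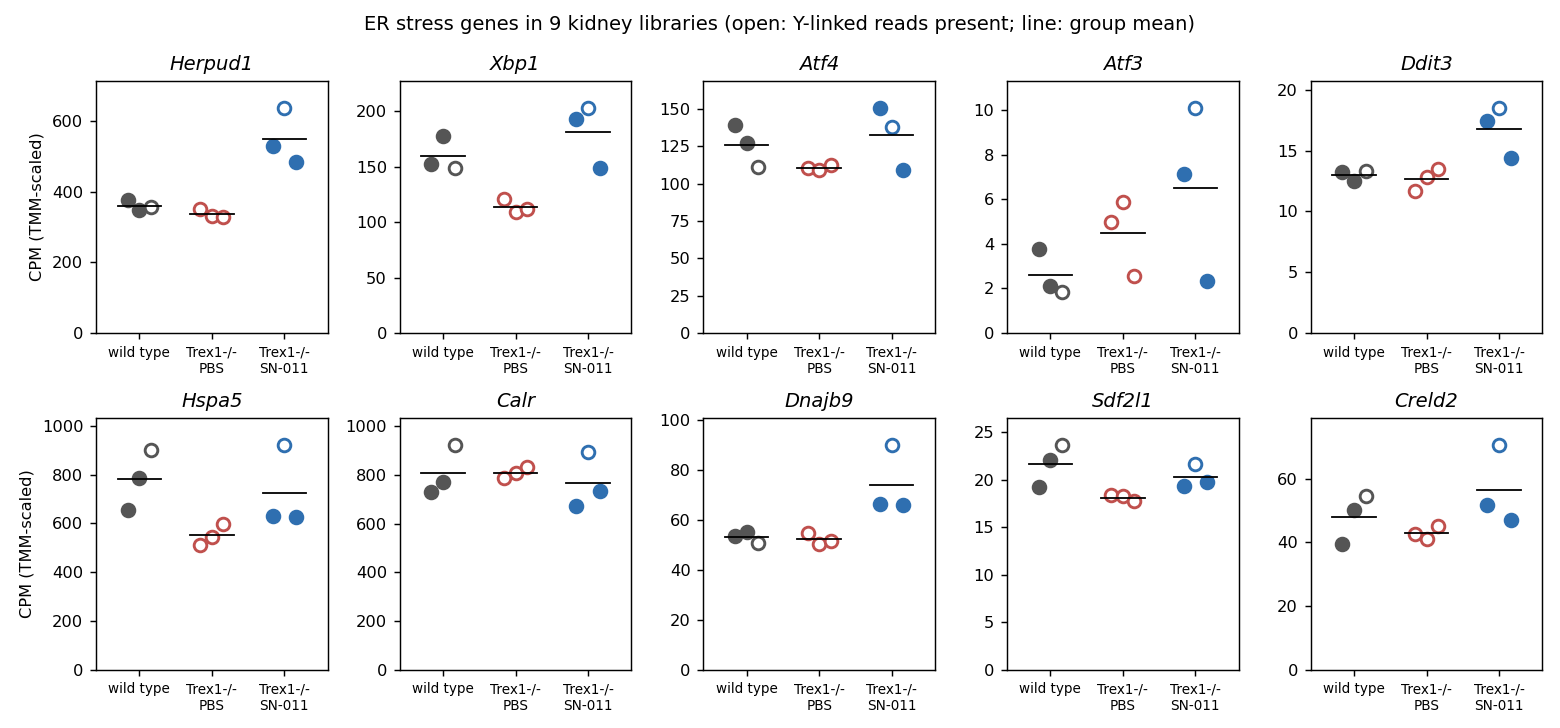
TMM-scaled CPM of the 10 ER stress genes (y axes from 0) in wild-type, Trex1-/- PBS and Trex1-/- SN-011 kidneys (x axes), with 1 point per library, lines at group means and open points for libraries with reads of Y-linked genes. Herpud1, Dnajb9 and Ddit3 had all 3 SN-011 libraries above the other 6, and Xbp1, Hspa5 and Sdf2l1 had all 3 PBS libraries below the other 6.

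Among the chaperones, Dnajb9 followed Herpud1 while Hspa5, Calr, Sdf2l1 and Creld2 overlapped the wild type with SN-011. Dnajb9, at chr12:44205559-44210326, encodes ERdj4, a co-chaperone of BiP that restrains IRE1. It had 53.8, 55.3 and 50.7 CPM in the wild type, 55, 50.4 and 51.8 CPM with PBS, and 66.3, 90.2 and 65.9 CPM with SN-011. The SN-011 libraries lay above all others, and those of the wild type and PBS overlapped almost wholly. SN-011 exceeded PBS by a log2 difference of 0.50 (SE 0.12) and the wild type by 0.48 (SE 0.119, adjusted p = 0.086 by edgeR), and the difference from the wild type was called in 4 of 19 alternative settings, with adjusted p from 0.0214 to 0.215. Without SN-011 replicate 2 the differences of Dnajb9 were 0.33 from PBS and 0.31 from the wild type (adjusted p = 0.0842 by edgeR).

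Hspa5 encodes BiP, the main ER chaperone, and lies at chr2:34771970-34777547. It had 656, 788 and 900 CPM in the wild type, 512, 545 and 598 CPM with PBS, and 629, 923 and 628 CPM with SN-011. The PBS libraries lay below all others, and the wild-type and SN-011 ranges overlapped. PBS was at 0.706 times the wild type (log2 difference -0.50, SE 0.171), which was not called at an adjusted p of 0.197 by edgeR. With a term for Y-linked reads the log2 difference was -0.79 and the adjusted p 0.0127 by edgeR. All PBS libraries carry such reads, so that term contrasts wild-type replicate 3 and SN-011 replicate 2 with the rest of their groups. Each of these was the highest of its group for Hspa5. Without SN-011 replicate 2 the log2 difference was -0.50 and the adjusted p 0.0413 by edgeR. SN-011 minus PBS was 0.40 (SE 0.171), and it was 0.18 without SN-011 replicate 2.

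Calr encodes calreticulin, a lectin chaperone that folds glycoproteins and holds calcium, and lies at chr8:84841850-84846934. It had 729, 770 and 924 CPM in the wild type, 787, 808 and 835 CPM with PBS, and 672, 895 and 735 CPM with SN-011. The 3 ranges overlapped, and it was the 1 member lower with SN-011 than with PBS, by a log2 difference of -0.08 (SE 0.131). PBS minus wild type was 0.00 (SE 0.131, adjusted p = 0.994 by edgeR).

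Sdf2l1, at chr16:17130138-17132383, encodes a partner of BiP's ER co-chaperones, and had 19.2, 22.1 and 23.7 CPM in the wild type, 18.3, 18.3 and 17.7 CPM with PBS, and 19.3, 21.6 and 19.8 CPM with SN-011. Every PBS library was lower than every library of the other groups, by a log2 difference of -0.26 from the wild type (SE 0.103, adjusted p = 0.27 by edgeR) and 0.16 between SN-011 and PBS (SE 0.103). Creld2, at chr15:88819646-88826683, encodes an ER protein induced by ATF6, and had 39.6, 50.1 and 54.6 CPM in the wild type, 42.5, 41.2 and 45.1 CPM with PBS, and 51.6, 70.7 and 47.2 CPM with SN-011. The SN-011 libraries of Creld2 lay above those with PBS (log2 difference 0.40, SE 0.158) and overlapped the wild type (0.23, SE 0.157, adjusted p = 0.476 by edgeR). Without SN-011 replicate 2, SN-011 minus PBS was 0.20 for Creld2 and 0.10 for Sdf2l1, and SN-011 minus wild type was 0.04 for Creld2.

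**Figure D2:**
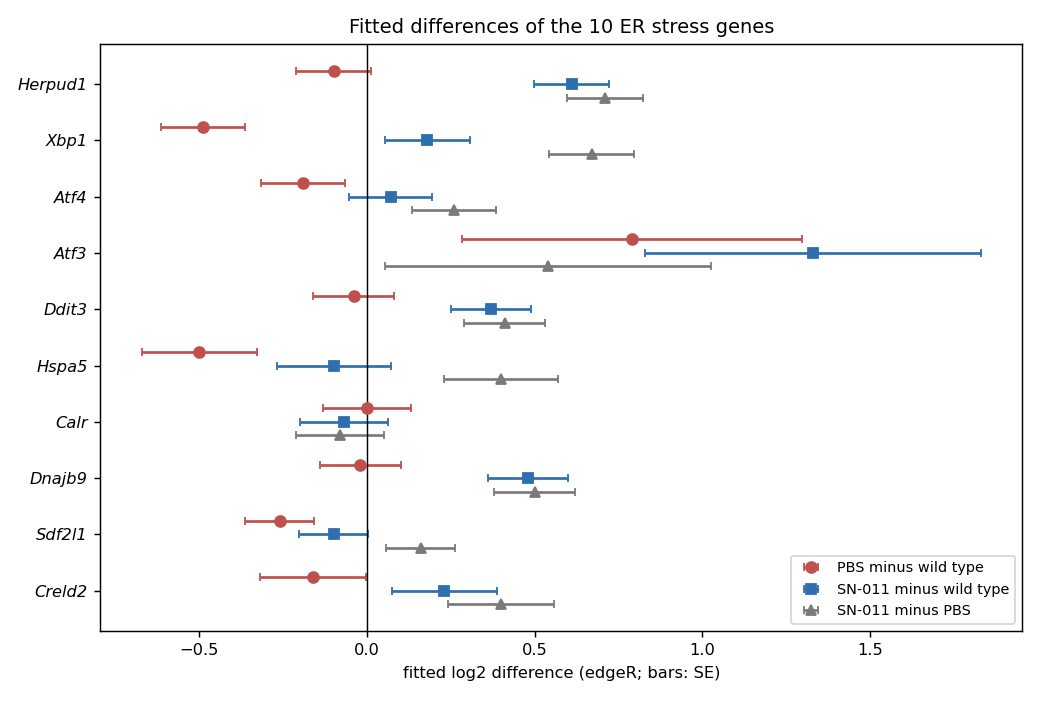
Fitted log2 differences (x axis) of the 10 ER stress genes (y axis) in 3 comparisons, with bars of 1 SE; triangles show the comparison by which the genes were taken up and carry no test. Herpud1 lies at 0.61 and 0.71 in the SN-011 comparisons and at -0.10 for PBS minus wild type, whereas Hspa5 and Xbp1 lie at -0.50 and -0.49 for PBS minus wild type.

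Over the 10 genes, PBS against wild type gave 0 calls by edgeR, beside 1.88% of all genes called and 0.439% called as lower, and 3 of the 10 had an unadjusted p under 0.05, all lower, beside 15.2% of all genes and 7.58% on the lower side. DESeq2 called 1 of the 10, Xbp1, in the same comparison. In all, 8 of the 10 lay below 0 and 2 above, beside 50.6% of all genes above, with a median log2 difference of -0.13 beside 0.00 over all genes tested. Hspa5, Xbp1 and Sdf2l1 had PBS libraries wholly below the wild type, as did 12.3% of all genes. For SN-011 against the wild type the median was 0.21 beside 0.00 over all genes, and Herpud1, Dnajb9 and Ddit3 had no overlap between the groups, as did 11.8% of all genes on the higher side. For SN-011 against PBS, 9 of 10 lay above 0, with a median of 0.40 beside -0.01. In that comparison 7 of 10 did not overlap and lay higher, beside 7.74% of all genes, and nothing is read from this count, since this comparison chose the genes. The 2 comparisons with the wild type share their PBS or SN-011 libraries with it. Their counts and medians over the 10 genes are therefore not independent of that choice, and only describe. No gene of the 16646 was called by edgeR between SN-011 and PBS (0%), 11.4% had an unadjusted p under 0.05, and DESeq2 called 183 and edgeR's exact test 127. With the replicate number as a block in those 6 libraries, a setting added after seeing the data, 5 genes were called. Without SN-011 replicate 2 edgeR called 519 genes, 129 higher and 390 lower, without SN-011 replicate 3 it called 22, and without PBS replicate 2 it called 1.

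Per exon length, Calr had the highest level of the 10 in every group and Atf3 the lowest. In RPKM (CPM divided by exon length in kilobases), Calr had 280.5 ± 35.7 in the wild type, 281 ± 8.34 in the PBS group and 266 ± 39.8 in the SN-011 group, and Atf3 had 1.2 ± 0.483, 2.08 ± 0.804 and 3.02 ± 1.82. In the wild type Hspa5 came next at 185 ± 28.9, then Herpud1 at 154 ± 6.47, and their ranges overlapped there, from 155 to 213 RPKM for Hspa5 and from 149 to 161 RPKM for Herpud1. With SN-011 Herpud1 was at 235 ± 33.7 and Hspa5 at 172 ± 40.2 RPKM, in overlapping ranges again. Within each SN-011 library Herpud1 was the higher, at 226, 273 and 207 RPKM against 149, 218 and 148.5 RPKM. With PBS Herpud1 lay at 144 ± 5.45 above Hspa5 at 130 ± 10.3, whose range reached 141 RPKM, within the range of Herpud1 from 140.3 to 150.5 RPKM. Within libraries the order was mixed in the wild type and with PBS. Atf4 at 53.4 ± 5.97 and Xbp1 at 49.2 ± 4.89 RPKM did not differ beyond their spread in the wild type, and neither did Dnajb9 at 20.9 ± 0.919 and Sdf2l1 at 19.6 ± 2.02. Creld2 lay between these pairs at 35.2 ± 5.62 RPKM, and Ddit3 at 7.58 ± 0.268 RPKM. The spread was widest for Atf3, with a coefficient of variation of 38.7% to 60.2% by group, on 32 to 174 counts per library. For the other 9 genes it was at most 16% in the wild type, 7.88% in the PBS group and 23.4% in the SN-011 group.

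Pairs of members were also compared within groups. With each group's mean removed from log2 CPM, 39 of the 45 pairs of members had a positive Pearson's r over the 9 libraries, with a median of 0.55 and a range from -0.45 to 0.96. Of the 5 chaperone genes, Hspa5, Creld2, Calr and Sdf2l1 had r from 0.81 to 0.96 with one another, with r of 0.96 between Hspa5 and Creld2, 0.93 between Hspa5 and Calr and 0.81 between Hspa5 and Sdf2l1. The fifth, Dnajb9, had r from 0.36 with Sdf2l1 to 0.66 with Creld2. Herpud1 went most closely with Dnajb9 (0.88) and Atf3 (0.80), and its r with Hspa5 was 0.51. Atf4 had negative values with Sdf2l1 (-0.45), Calr (-0.38), Hspa5 (-0.13) and Creld2 (-0.01). The points share their library, depth and scaling, and removing 3 means leaves fewer free values than libraries, so these coefficients only describe. No such values were computed for pairs of other genes. Many other genes also deviated together. Over genes with a mean of at least 10 CPM, the deviations of SN-011 replicate 2 had r of 0.58 with wild-type replicate 3 and -0.56 with wild-type replicate 2. Hspa5, Calr, Creld2 and Sdf2l1 were each highest in wild-type replicate 3 among wild-type libraries and in SN-011 replicate 2 among SN-011 libraries, which are the libraries of those groups with Y-linked reads, and the part of sex in this was not tested. With a term for Y-linked reads, PBS minus wild type was -0.43 for Creld2 (adjusted p = 0.191 by edgeR), -0.37 for Sdf2l1 (adjusted p = 0.206 by edgeR) and -0.21 for Calr (adjusted p = 0.499 by edgeR). With the same term Xbp1 was at -0.53 (adjusted p = 0.171 by edgeR), and Dnajb9 in SN-011 minus wild type was at 0.46 (adjusted p = 0.0426 by edgeR).

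**Figure D3:**
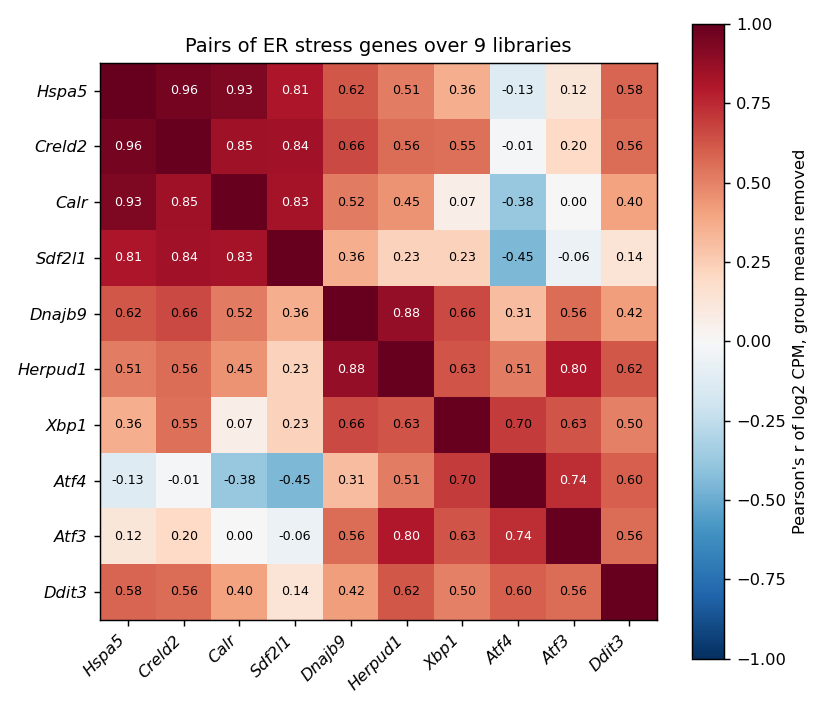
Pearson's r (colour and printed value) between log2 CPM of each pair of ER stress genes over 9 libraries after removing group means; rows and columns are genes. Hspa5, Creld2, Calr and Sdf2l1 form a block from 0.81 to 0.96, and Atf4 reaches -0.45 with Sdf2l1.

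Over the 9 libraries and 10056 genes with a mean of at least 10 CPM, the genes whose log2 CPM went most closely with Hspa5 were Hyou1 (r = 0.948), Pdia4 (0.942), Hsp90b1 (0.939), Manf (0.933) and Sdf2l1 (0.912). Hyou1 encodes a large ER chaperone, Pdia4 a disulfide isomerase and Hsp90b1 the ER form of HSP90. The group means of Hyou1, Pdia4 and Hsp90b1 ran in the order of Hspa5, with Hsp90b1 at 462 CPM in the wild type, 375 CPM in the PBS group and 435 CPM in the SN-011 group. For Herpud1 the nearest were Rc3h1 (0.967), Dnajb9 (0.958), Clk4 (0.956), Hsph1 (0.955) and Map3k2 (0.955). These values hold the difference between SN-011 and PBS by which Herpud1 was chosen, and with group means removed r was 0.69 for Rc3h1, 0.88 for Dnajb9, 0.58 for Clk4, 0.91 for Hsph1 and 0.84 for Map3k2. Hsph1, a cytosolic heat shock chaperone, had group means of 164 CPM in the wild type, 137 CPM in the PBS group and 314 CPM in the SN-011 group.

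The rest of the pathway was read from 86 further genes in 4 lists, of which 83 passed the filter. Of these, 1 was called in PBS against wild type and the same gene in SN-011 against wild type, beside 1.88% and 1.28% of all genes. This was Txndc5, a disulfide isomerase of the ER, which fell in Trex1-/- kidneys. It had 160.1, 161 and 151 CPM in the wild type, 112, 116 and 109 CPM with PBS, and 117, 106 and 122 CPM with SN-011. All 6 Trex1-/- libraries lay below the wild type, by -0.49 with PBS (SE 0.0831, adjusted p = 0.0137 by edgeR) and by -0.45 with SN-011 (SE 0.083, adjusted p = 0.0322 by edgeR). It was called in 13 of 19 alternative settings with PBS, with adjusted p up to 0.0808, and in 11 of 19 with SN-011, up to 0.13. With PBS it was lost without wild-type replicate 1 (0.0736) or 2 (0.0808), without any PBS replicate (0.0522 to 0.0798), and with the Y-linked term (0.0643). With SN-011 it was lost without wild-type replicate 1 (0.129) or 2 (0.13), without any PBS replicate (0.0529 to 0.0758), without SN-011 replicate 1 (0.0662), with the replicate number as a block (0.0536) and with only 6 libraries (0.121). The log2 difference of Txndc5 over all 19 settings was -0.52 to -0.40 with PBS and -0.50 to -0.40 with SN-011. Summed CPM of 6 adipocyte genes was also lower on average in the Trex1-/- groups, at 126 to 299 in the wild type, 87 to 158 in the PBS group and 105 to 123 in the SN-011 group, with 5 of 5 tested genes below 0 and 0 called in each comparison with the wild type, and its part in the values of Txndc5 was not tested.

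By list, the 10 tested sensors and proteases had a median log2 difference of -0.07 for PBS minus wild type, 0.00 for SN-011 minus wild type and 0.01 for SN-011 minus PBS. The 25 folding genes had -0.05, -0.03 and 0.03, with 18 of them below 0 for PBS minus wild type, and the 25 degradation and translocon genes had 0.00, 0.00 and 0.01. The 23 tested targets of PERK and ATF4 had -0.05, 0.15 and 0.24, with 18 above 0 for SN-011 minus wild type, 0 of them called, and 16 above 0 for SN-011 minus PBS. Over all genes the medians were 0.00, 0.00 and -0.01, and 49.5% and 48.9% lay above 0 in the SN-011 comparisons.

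**Figure D4:**
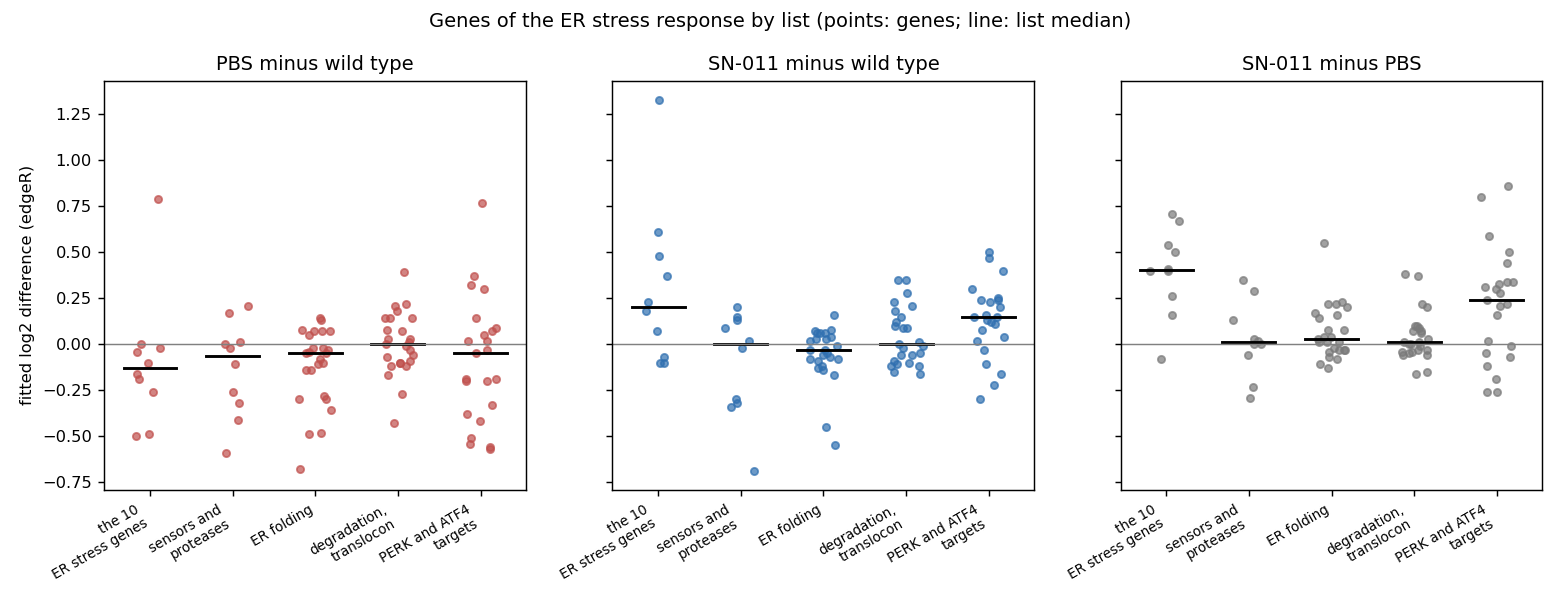
Fitted log2 differences (y axis) of the 10 ER stress genes and of 83 other tested genes of the response in 4 lists (x axis), with 1 panel per comparison, 1 point per gene and lines at list medians. The median of the PERK and ATF4 targets is 0.24 for SN-011 minus PBS, against 0.01 to 0.03 in the other 3 lists.

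Of the 83 genes, 9 had SN-011 libraries wholly above PBS and 4 wholly below, beside 7.74% and 8.41% of all genes, and these are values without a test. Sesn2, an ATF4 target that restrains mTORC1, had 58.8, 56.8 and 46.6 CPM with PBS and 65.4, 108 and 70.8 CPM with SN-011 (log2 difference 0.59, SE 0.175). Manf, a secreted ER stress protein, had 54.8, 56.2 and 62.8 CPM with PBS and 77.3, 102 and 75.1 CPM with SN-011 (0.55, SE 0.172). For each of these SN-011 replicate 2 was the highest library. In the wild type Sesn2 had 64.4, 75.9 and 71.6 CPM and Manf 60.5, 84.5 and 97 CPM, so the SN-011 range of each overlapped the wild type.

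Syvn1, the ubiquitin ligase HRD1 that works with the product of Herpud1, had 74.8, 78.6 and 79.8 CPM with PBS and 101, 117 and 86.1 CPM with SN-011 (0.38, SE 0.112). Eif2ak3, which encodes PERK, had a log2 difference of 0.35 (SE 0.11), with an SN-011 range that overlapped the wild type, and Ppp1r15b, a regulator of eIF2α phosphatase, one of 0.31 (SE 0.0979). On the lower side were Atf6b, the relative of ATF6, at -0.23 (SE 0.076), the mannosidase-like Edem2 at -0.15 (SE 0.0844), the tryptophan tRNA synthetase gene Wars at -0.12 (SE 0.0885) and the prolyl isomerase gene Ppib at -0.04 (SE 0.0691).

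Lists of heat shock, clock and immediate early genes are given beside Herpud1 and Dnajb9. Summed CPM of 7 cytosolic heat shock genes was 2611, 2929 and 2565 in the wild type, 1940, 2232 and 2237 with PBS, and 3527, 6030 and 2757 with SN-011. SN-011 replicate 2 was the highest library for these genes, for Herpud1 and for Dnajb9, and the sum was lowest in the PBS group, where 6 of the 7 genes were below 0 against the wild type and 1 above. For SN-011 minus PBS 7 of 7 lay above 0, with a median log2 difference of 1.06, and Hspa1a went from 23.8, 23.2 and 21.7 CPM with PBS to 91.8, 268 and 39.6 CPM with SN-011. Against the wild type 0 of the 7 were called with SN-011 by edgeR, and 5 had an unadjusted p under 0.05, beside 18.0% of all genes. Summed CPM of 11 circadian clock genes was 498 to 712 in the wild type, 506 to 639 in the PBS group and 690.3 to 974 in the SN-011 group, and the time of day of collection is not in the labels. SN-011 replicate 2, the highest library for Herpud1, was the lowest of its group for this sum. For SN-011 minus PBS 9 of the 11 lay above 0 and 2 below, and of the latter Arntl had 16.3, 21.1 and 24 CPM with PBS and 5.67, 22.7 and 11.2 CPM with SN-011, while Npas2 had 13.5, 16.6 and 18.6 CPM and 1.76, 13.9 and 4.45 CPM. Summed CPM of 8 immediate early genes, which handling of tissue can induce, was 186 to 241 in the wild type, 173 to 236 in the PBS group and 216 to 272 in the SN-011 group, in overlapping ranges. For SN-011 minus PBS 6 of these 8 lay above 0, with a median log2 difference of 0.28 and a highest of 2.85, and Fosb had 0.67, 0.525 and 0.497 CPM with PBS and 8.78, 2.9 and 0.594 CPM with SN-011. The part of each of these in the values of Herpud1 and Dnajb9 was not tested.

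**Figure D5:**
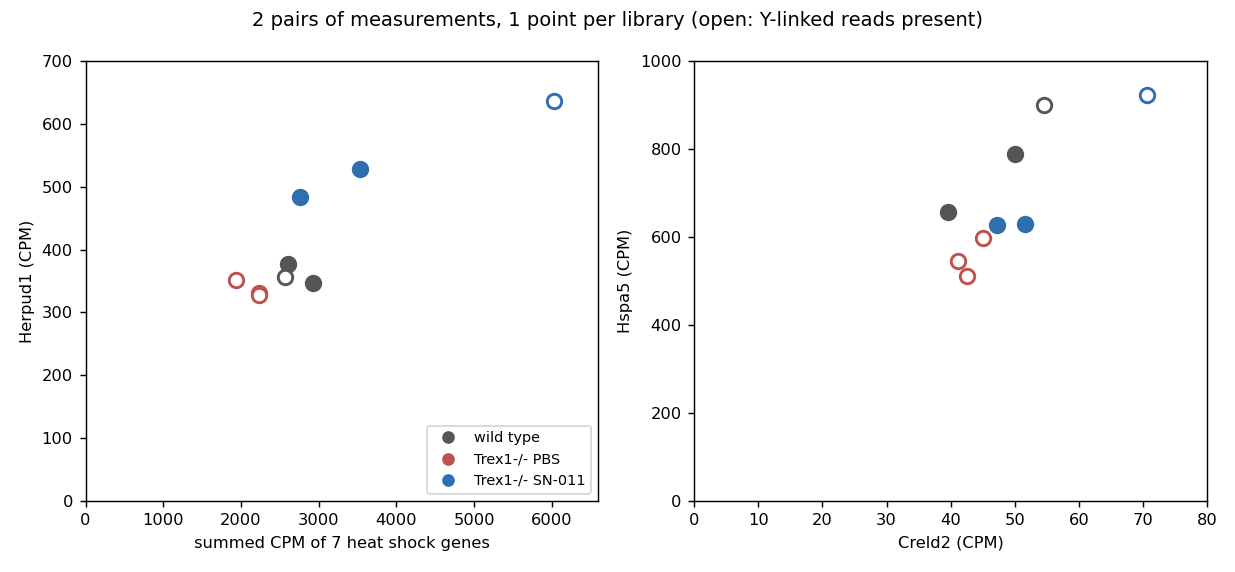
Left, Herpud1 CPM (y axis) against the summed CPM of 7 heat shock genes (x axis); right, Hspa5 CPM (y axis) against Creld2 CPM (x axis), with 1 point per library, colours for groups and open points for libraries with Y-linked reads. The SN-011 libraries lie highest for Herpud1, with replicate 2 at 6030 heat shock CPM, and the PBS libraries lie lowest for Hspa5, from 512 to 598 CPM.

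Immune cells also carry a strong ER stress programme, plasma cells above all, and less RNA of a cell type cannot be told apart from fewer such cells in whole kidney. Summed CPM of 8 plasma cell genes was 59.7 to 106 in the wild type, 217 to 268 in the PBS group and 170.1 to 340.2 in the SN-011 group, and 3 of 7 tested were called higher with PBS than in the wild type by edgeR, beside 1.88% of all genes called. In the same comparison 4 of 8 macrophage genes and 1 of 6 tested T and NK cell genes were called higher, and with SN-011 against the wild type the counts were 3 of 7, 0 of 8 and 0 of 6, beside 1.28% of all genes. Tnfrsf17, a defining plasma cell marker, had 0 to 5 counts in each library. Immunoglobulin genes made up most of the plasma cell sum in each library, Igha with 15.1 to 40.7 CPM in the wild type and 106 to 137 CPM with PBS, and Igkc with 9.85 to 23.7 and 60.7 to 76.5 CPM. For PBS minus wild type 5 of the 7 tested lay above 0 and 2 below, and Sdc1 had 18.7 to 22.4 CPM in the wild type and 17.3 to 19.2 CPM with PBS. Summed CPM of 8 macrophage genes was 426 to 550.3 in the wild type, 971 to 1278 in the PBS group and 569 to 1039 in the SN-011 group, with 8 of 8 below 0 for SN-011 minus PBS. Cd74 made up most of this sum in each library, with 253 to 345, 690 to 963 and 402 to 780 CPM in the same order of groups. Against the wild type, 1 of the 8 genes lay wholly higher with SN-011, beside 11.8% of all genes. The 7 T and NK cell genes summed to 6.46 to 10.2, 16.4 to 26.8 and 8.39 to 19.4 CPM in the same order of groups. Their part in the values of the 10 genes was not tested.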

How the data were processed

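Kidney RNA of 3 groups of 3 libraries was measured by paired-end RNA-seq. The authors trimmed reads with Trimmomatic, aligned them with hisat2 and deposited raw featureCounts counts per Ensembl gene, in which a read pair counts if it maps uniquely. The submitters' processing notes name mm10, and the tool versions, annotation and strand setting are not given in the sources used here. Of 54532 identifiers, 54495 matched GENCODE vM21. The members, gene lists and alternatives were chosen with earlier results of these data known. Genes were filtered with filterByExpr (minimum count 10, minimum total 15), scaled by TMM and tested in 1 fit of all 9 libraries by edgeR 4.0.16 (R 4.3.3) with the quasi-likelihood F test, at a Benjamini-Hochberg adjusted p under 0.05 over 16646 genes. Steps were tested on simulated data. Correlations used log2 CPM with a prior count of 2. RPKM used the summed exon length of GENCODE. Depth was 16118813 to 21928965 counts per library, and the number of libraries limits the precision.

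Pathway genes were named where called against the wild type, or, for SN-011 against PBS, as the 5 largest differences in each direction with a mean of at least 5 CPM and no overlap. The 19 alternatives were DESeq2 1.42.0 or upper-quartile scaling, no filter beyond 1 read, a mean of at least 50 counts, tests by limma-voom (limma 3.58.1), edgeR's exact test and the DESeq2 Wald test, only the 6 libraries compared, a replicate block, a term for Y-linked reads (at least 10 CPM) and leaving out each library. Same-numbered PBS and SN-011 libraries had r of 0.34, 0.40 and 0.12 between their deviations from the group means. Differently numbered ones had r from -0.38 to 0.21. The labels give no pairing, and these values do not establish one, since wild-type replicate 3 and SN-011 replicate 2 had r of 0.58. A block in the 6 PBS and SN-011 libraries was added after seeing the data.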

Additional observations from a re-analysis of the deposited data

How the results depend on the processing

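Of the 10 genes, 1 was called in PBS against wild type without a filter, by the DESeq2 Wald test, with only the 6 libraries compared and with the Y-linked term, and 0 to 2 when a library was left out. In SN-011 against wild type, 2 were called without a filter, by DESeq2, by the exact test and with the Y-linked term, 0 with only 6 libraries, and 0 to 1 when a library was left out. Of the 83 pathway genes, PBS against wild type gave 3 without a filter, 2 by DESeq2, 2 by the exact test, 4 with 6 libraries, 4 with the Y-linked term and 0 to 3 when a library was left out. SN-011 against wild type gave 2 with upper-quartile scaling, 3 without a filter, 2 with the stricter filter, 5 by DESeq2, 2 by the exact test, 0 with 6 libraries, 4 with the Y-linked term and 0 to 3 when a library was left out. Over all genes, PBS against wild type gave 707, 726, 683, 751 and 198 calls without a filter, by DESeq2, by the exact test, with 6 libraries and with the Y-linked term, and 153 to 774 when a library was left out, beside 313. SN-011 against wild type gave 607, 828, 601, 43 and 656 in the same order, and 38 to 376, beside 213. SN-011 against PBS gave 127, 183 and 127 in the first 3 of these and 0 to 519, beside 0, the highest without SN-011 replicate 2. The cause of these changes in the counts was not tested.

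Signs turned where differences were near 0. Calr in PBS minus wild type went from 0.00 to -0.02 with upper-quartile scaling, -0.21 with the Y-linked term and -0.07 to 0.11 when a library was left out, and it stayed at 0.00 under DESeq2 scaling, both filters and the DESeq2 test, with a sign below the printed digits. When a library was left out, PBS minus wild type ran from -0.07 to 0.00 for Dnajb9 and from -0.09 to 0.01 for Ddit3, SN-011 minus wild type from -0.32 to 0.00 for Hspa5, -0.20 to 0.03 for Calr and -0.03 to 0.20 for Atf4, and SN-011 minus PBS from -0.21 to 0.01 for Calr, which was 0.13 with the Y-linked term. That term also moved SN-011 minus PBS of Hspa5 to 0.67, Sdf2l1 to 0.27 and Creld2 to 0.64.

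Replicate numbers did not pair the wild type with the other groups (same-number r of 0.26, -0.12 and 0.13 with PBS and of 0.40, -0.56 and -0.40 with SN-011). With the replicate number as a block in all 9 libraries, 2 pathway genes were called between PBS and wild type and 0 between SN-011 and wild type, and no call among the 10 genes moved. In the 6 PBS and SN-011 libraries alone, the block, added after seeing the data, gave 5 calls over all genes.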
